A study of Mus musculus with 11 samples.

Results

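The circadian clock repressor arm was described through 10 genes, Per1, Per2, Per3, Cry1, Cry2, Nr1d1, Nr1d2, Dbp, Ciart and Bhlhe40, found by symbol among the 47131 genes of the deposited count table. All 10 passed the filter on low counts and were among the 14840 genes tested. Poly(A) RNA was sequenced from colorectal organoids, epithelial structures kept in Matrigel that were started from the colon of female mice (C57BL/6J, 6 to 8 weeks old). In 6 libraries the organoids had been given 10 pM NAP for 48 h, and in 5 control libraries they had not. The abbreviation NAP is not spelled out in the labels, and the control organoids are labelled both as having had no treatment and as having had a PBS vehicle. No genotype other than the strain is given, and every library has batch label 1. Neither the time of day at which organoids were collected nor any step that synchronised their clocks is named there. The libraries are called biological replicates, but separate mice or cultures are not named, and p-values here measure only the spread between libraries, part of which may be technical.

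The mammalian clock is a feedback loop of transcription. The positive arm, a dimer of BMAL1 (gene Arntl) with CLOCK or its paralog NPAS2, binds E-box elements and switches on genes whose products repress that dimer (PER and CRY proteins), repress Arntl itself (the nuclear receptors REV-ERB alpha and beta, from Nr1d1 and Nr1d2), compete at E-boxes (BHLHE40) or bind BMAL1 to repress it (CIART). Dbp is an E-box target whose product activates genes through D-box elements, so its RNA is widely used as a readout of the loop. In gut epithelium the loop is known to time nutrient transport, barrier function and cell division. Because each cell keeps its own phase, RNA from a culture averages over its cells. Fewer cells expressing a gene and less RNA per cell cannot be told apart in bulk RNA.

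Total counts per library ran from 16546263 to 21947414, and the 10 genes held from 117 counts (Ciart in a control) to 15156 counts (Bhlhe40 in a NAP library) each. Epithelial markers were high in every library: the 8 markers summed to 11351 to 15262 CPM (counts scaled to library size) in controls and to 10649 to 15236 CPM after NAP. Markers of other tissues were low, with the 5 muscle markers at 0.410 to 1.43 CPM in controls and 0.112 to 0.286 CPM after NAP (Tagln at 0 throughout) and the 7 immune markers at 6.49 to 14.1 and 9.26 to 17.5 CPM, mostly Cd68 and Itgam. The 7 fibroblast markers summed to 2.72 to 27.1 and 8.26 to 47.3 CPM, mostly Pdgfrb. After NAP, Dcn and Col3a1 reached 6.32 and 4.51 CPM against group means of 1.16 and 0.768 CPM. Endothelial markers stayed at or below 7.41 CPM and neuronal and glial markers at or below 4.13 CPM. Within the epithelium the controls differed widely from each other. A score of 10 colonocyte minus 10 stem cell markers (difference of mean log2 deviations) was −2.87 and −3.70 in controls 1 and 4, 2.80 and 2.71 in controls 2 and 5, −1.06 in control 3 and −0.78 to 1.29 in the NAP libraries. Controls 2 and 5 were the closest pair of all libraries, with a chi-square of 8.51 per gene between their counts where sampling noise alone gives about 1. NAP 2, 4 and 5 (15.2 to 25.7) and controls 1 and 4 (48.7) followed. Control 3 and NAP 3, a pair across the groups, came next at 51.8, and the 55 pairs reached 373.8. No pair agreed within sampling noise, so none was treated as a library deposited again. Preparations of a shared mouse or culture would also differ by more than that noise, and the labels do not say whether the close libraries share one. Values with the close libraries of the same group summed are therefore given as well, which leaves control 3 and NAP 3 apart. Mitochondrial genes held 2.74 to 4.78% of counts in controls and 5.17 to 8.08% after NAP. The rank correlation of a gene's GC content with its deviation from the mean level was 0.015 to 0.360 in controls and −0.539 to 0.109 after NAP.

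RefSeq promoter windows of 300 bases ran from 250 before to 50 after a transcription start (GRCm38.p6). For 8 of the 10 genes, all but Per2 and Bhlhe40, 9 windows were found. They were searched on both strands for the E-box CACGTG, the variant E-box CACGTT, the D-box (TTATGTAA or TTACGTAA), the core of the element bound by ROR and REV-ERB proteins (TAGGTCA or TGGGTCA) and the cAMP response element TGACGTCA. The sequences of Ciart, Per1, Cry1 and Per3 are shown because they hold the E-boxes and D-boxes through which clock factors are known to act. Capitals mark the matches. The windows lie at chr3:95882179-95882478 (Ciart, minus strand), chr11:69098699-69098998 (Per1, plus strand), chr10:85185005-85185304 (Cry1, minus strand) and chr4:151044616-151044915 (Per3, minus strand), all read 5′ to 3′.
Ciart: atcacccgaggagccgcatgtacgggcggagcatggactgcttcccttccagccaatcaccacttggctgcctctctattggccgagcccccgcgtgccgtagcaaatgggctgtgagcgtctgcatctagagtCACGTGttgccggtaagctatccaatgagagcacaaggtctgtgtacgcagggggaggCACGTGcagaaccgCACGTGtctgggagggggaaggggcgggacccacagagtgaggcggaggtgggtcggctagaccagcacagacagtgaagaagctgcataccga
Per1: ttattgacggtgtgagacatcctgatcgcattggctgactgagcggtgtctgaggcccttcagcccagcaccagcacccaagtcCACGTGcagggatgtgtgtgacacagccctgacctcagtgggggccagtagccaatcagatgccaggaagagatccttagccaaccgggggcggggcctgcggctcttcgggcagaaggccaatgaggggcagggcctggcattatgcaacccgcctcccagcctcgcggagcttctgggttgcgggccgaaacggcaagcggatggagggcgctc
Cry1: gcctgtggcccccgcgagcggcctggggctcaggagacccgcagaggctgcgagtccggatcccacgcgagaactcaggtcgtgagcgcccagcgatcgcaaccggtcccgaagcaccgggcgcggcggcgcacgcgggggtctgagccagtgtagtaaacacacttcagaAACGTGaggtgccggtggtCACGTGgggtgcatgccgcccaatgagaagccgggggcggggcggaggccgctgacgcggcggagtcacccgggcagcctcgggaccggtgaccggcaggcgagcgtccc
Per3: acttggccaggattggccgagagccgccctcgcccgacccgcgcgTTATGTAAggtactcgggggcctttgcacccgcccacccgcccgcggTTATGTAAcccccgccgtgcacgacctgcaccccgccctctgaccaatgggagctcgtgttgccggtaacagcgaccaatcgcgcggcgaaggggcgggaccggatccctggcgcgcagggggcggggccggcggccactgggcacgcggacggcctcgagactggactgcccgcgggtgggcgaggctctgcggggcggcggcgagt

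Ciart held 3 E-boxes, starting at −116, −58 and −44 from the start site, while 0.594% of the 32851 windows of all genes held 2 or more. Per1 held 1 E-box at −166 in the window shown and none in its other window, and Cry1 held 1 at −60 next to a variant E-box at −79. Cry2 and Nr1d1 each had 1 variant E-box, at −166 and −28. Per3 had no E-box and 2 D-boxes, at −205 and −158, an element found in 1.06% of windows. E-boxes were thus present in 3 of 8 genes with a window against 8.09% of 27025 genes, and variant E-boxes in 3 of 8 against 5.44%. The windows of Dbp and Nr1d2 held none of these letters, and 0 of the 8 genes had the ROR core or the cAMP element (7.35% and 2.03% of all genes). In the positive arm the 7 windows of 4 genes held no E-box, and Arntl had 1 ROR core at 30 bases after its start. These matches describe letters in a short window, and binding was not measured.

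Levels were compared between genes per length, as FPKM (counts per gene length and library scale). Bhlhe40 was the most abundant of the 10 in every library, at 101 ± 33.6 FPKM in controls (mean ± SD, n = 5, here and below) and 191 ± 65.1 FPKM after NAP (n = 6). Nr1d1 was next in both groups, at 22.8 ± 13.5 and 50.7 ± 28.0 FPKM. The other 8 genes lay between 3.29 and 14.3 FPKM on average in controls, in the order Cry2, Dbp, Cry1, Per2, Per1, Per3, Nr1d2 and Ciart. Most neighbours in that order did not differ beyond their spread: Cry2 exceeded Dbp in 7 of 11 libraries, Dbp exceeded Cry1 in 5, Cry1 exceeded Per2 in 8, Per1 exceeded Per3 in 6 and Nr1d2 exceeded Ciart in 5. Ciart, at 3.29 ± 0.60 and 5.99 ± 1.92 FPKM, had the lowest mean in both groups. Dbp ranked below Cry2 in controls, at 13.0 ± 11.3 FPKM, and below Cry1 and Per2 as well after NAP, at 12.5 ± 4.20 FPKM.

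**Figure D1:**
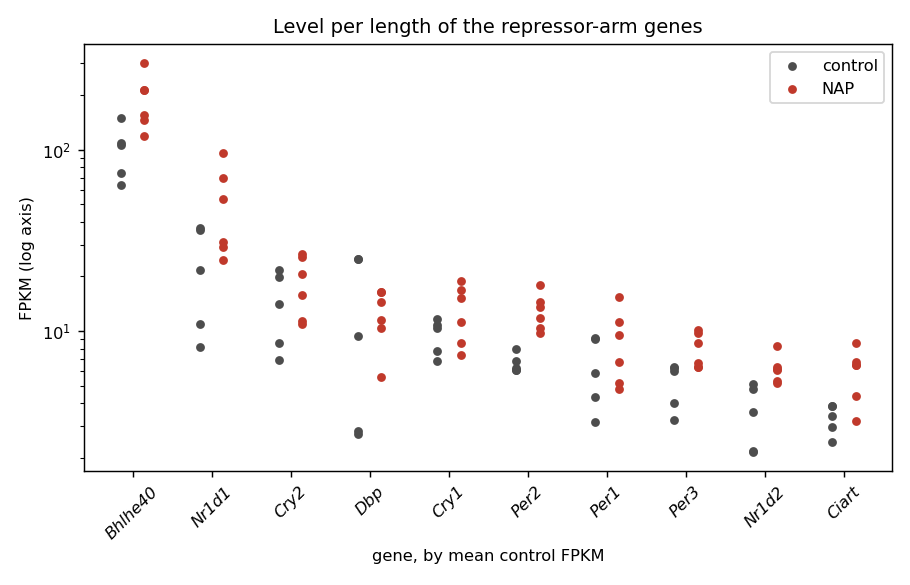
FPKM on a log axis for the 10 repressor-arm genes, ordered by mean control level, with 1 point per library (5 control, 6 NAP). Bhlhe40 lies above every other gene, and Dbp has the widest spread among controls.

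The comparison of NAP with control asked whether the RNA of these repressors differed after 48 h. Per2 rose, and was the only 1 of the 10 genes past an adjusted p of 0.05 over all genes in edgeR's quasi-likelihood test (n = 5 and 6). That test called 1.05% of all tested genes higher (156) and 1.07% lower (159). With the trend over GC content removed per library it called 30 higher and 4 lower, among the 84.0% of tested genes with GC values. At an unadjusted p below 0.05 there were 6 of the 10 genes, all higher (Per2, Per3, Nr1d1, Nr1d2, Ciart and Bhlhe40), where 10.8% of all genes were higher and 12.7% lower at that level. In Per2, Per3 and Nr1d2 every NAP library stood above every control, which held for 2.14% of all genes (2.57% lay wholly below). The log2 fold change was positive in 9 of 10 genes with a median of 0.71, against 44.7% of genes positive and a median of −0.07 over all tested genes. Stem cell markers ran the other way, with 0 of 10 positive (median −0.81, 0 called), and 2 of 10 colonocyte markers were positive (median −0.22, with Ceacam1 called higher). Beyond the fit with the marker score as a covariate, given below, their part in these values was not tested. The genes were chosen with earlier results of these data known, so these counts describe them and test nothing further.

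**Figure D2:**
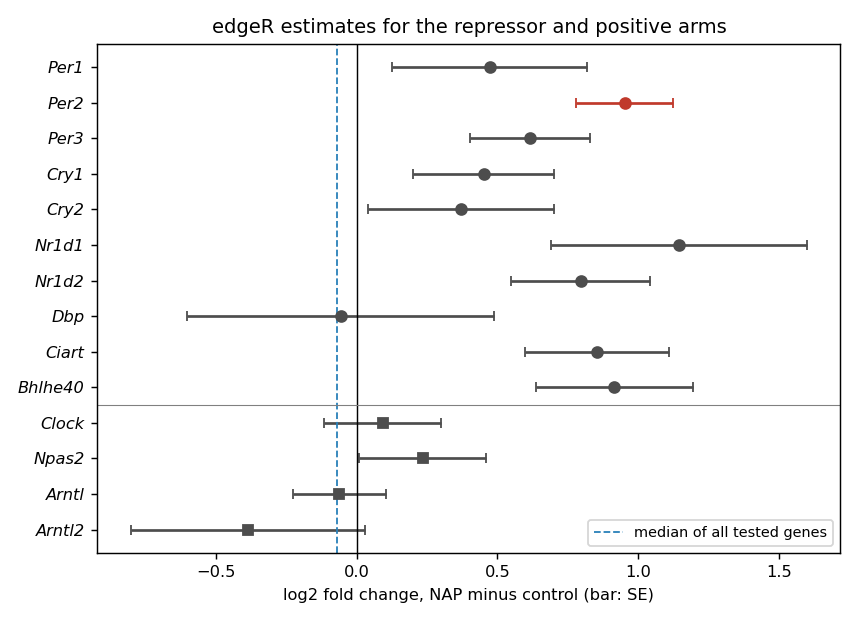
Log2 fold change, NAP minus control, with its SE from edgeR for the 10 repressor-arm genes (circles) and 4 positive-arm genes (squares), with a dashed line at the median of all tested genes (−0.07). Per2, in red, passed an adjusted p of 0.05, and 9 of 10 repressor-arm genes lie right of 0 while the positive-arm genes lie between −0.39 and 0.23.

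Per genes encode the PERIOD proteins, which enter the nucleus with cryptochromes and block CLOCK and BMAL1. Per2 (gene identifier 18627, chromosome 1, 91343699 to 91387072, minus strand, GRCm39) had 38.9, 39.3, 51.1, 38.5 and 43.2 CPM in controls 1 to 5. After NAP it ran from 61.7 CPM (NAP 6) through a median of 79.9 to 111 CPM (NAP 5). Its controls were the most even of the 10 genes, spanning 1.33-fold, and the lowest NAP library stood above the highest control. The rise was 1.94-fold (log2 fold change 0.95, SE 0.17, adjusted p = 0.0343 in edgeR), and 1.23 on the log2 scale with the GC trend removed (adjusted p = 0.0331). The call did not survive every library being left out: without control 1, 2 or 5 the adjusted p was 0.0801, 0.0978 and 0.0827, and without NAP 2, 4 or 5 it was 0.103, 0.112 and 0.106. In those 6 fits edgeR called no gene at all, while 2614 to 3311 had an unadjusted p below 0.05, and the log2 fold change of Per2 stayed between 0.85 and 1.04 in all 11 such fits.

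Per3 (identifier 18628, chromosome 4, 151081475 to 151129167, minus strand) had 38.7, 59.7, 59.5, 30.5 and 57.1 CPM in controls 1 to 5. The NAP libraries held 59.8 to 94.9 CPM with a median of 72.2. The groups did not overlap, but only just, since NAP 3 (59.8 CPM) lay beside controls 2 and 3. The difference was 0.62 on the log2 scale (SE 0.21, edgeR adjusted p = 0.110). Per1 (identifier 18626, chromosome 11, 68985934 to 69000791, plus strand), the member known for quick induction by hormones and cAMP, had 39.0, 80.3, 52.5, 28.0 and 79.8 CPM in controls. After NAP it had 42.6 to 135 CPM with a median of 71.8, and only 3 of 6 libraries (NAP 2, 4 and 5) were above all controls. Its log2 fold change of 0.47 had an SE of 0.35 (adjusted p = 0.430), and it was 0.24 without NAP 5, 0.31 without control 4 and 0.91 with the GC trend removed (adjusted p = 0.732, 0.612 and 0.210). The ratio of Per2 to Per1 on the FPKM scale was 0.69 and 0.76 in controls 2 and 5, and 1.16 to 2.03 in the other 9 libraries.

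Cry1 and Cry2 encode the cryptochromes, the partners of PER that hold CLOCK and BMAL1 inactive. Cry1 (identifier 12952, chromosome 10, 84967564 to 85020918, minus strand) had 32.5, 43.9, 43.2, 28.3 and 47.8 CPM in controls 1 to 5, and the NAP libraries ran from 30.6 to 77.6 CPM with a median of 54.4. Cry2 (identifier 12953, chromosome 2, 92233991 to 92264426, minus strand) had 37.4, 84.7, 60.8, 29.7 and 92.7 CPM in controls, and the NAP libraries ran from 47.2 to 113 CPM with a median of 78.0. In both genes NAP 2, 4 and 5 held the 3 highest NAP values, and NAP 1, 3 and 6 lay within the range of the controls. NAP 2, 4 and 5 lay above all controls in Cry1, but in Cry2 NAP 4 (88.3 CPM) lay below control 5 (92.7 CPM). Log2 fold changes were 0.45 for Cry1 (SE 0.25, adjusted p = 0.297) and 0.37 for Cry2 (SE 0.33, adjusted p = 0.520). The value for Cry2 was 0.20 without control 4 and 0.24 without NAP 5.

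Nr1d1 and Nr1d2 encode REV-ERB alpha and beta, heme-binding receptors that repress Arntl. Nr1d1 (identifier 217166, chromosome 11, 98658758 to 98666233, minus strand) had 34.4, 113, 67.7, 25.3 and 111 CPM in controls 1 to 5. After NAP it had 76.3 CPM (NAP 6) to 292 CPM (NAP 5) with a median of 130, above all controls in NAP 2, 4 and 5 only. Its log2 fold change was the largest of the 10 at 1.14, with an SE of 0.45 (adjusted p = 0.152), and the libraries spanned 4.48-fold among controls and 3.82-fold after NAP. Nr1d2 (identifier 353187, chromosome 14, 4230549 to 4265640, plus strand) had 41.3, 17.3, 29.0, 38.6 and 17.3 CPM in controls, against 41.8 to 65.6 CPM in NAP libraries with a median of 49.5. Every NAP library lay above every control, though NAP 6 (41.8 CPM) lay beside control 1 (41.3 CPM). The log2 fold change was 0.80 (SE 0.25, adjusted p = 0.0854). The receptors ran in opposite order among controls: controls 2 and 5 had the highest Nr1d1 and the lowest Nr1d2. Their FPKM ratio, Nr1d1 to Nr1d2, was 2.17 and 1.71 in controls 1 and 4, 6.08 in control 3 and 17.1 and 16.7 in controls 2 and 5, and it lay between 4.76 and 11.6 in the NAP libraries. The interval of Nr1d1 overlaps that of Thra on the other strand by 1075 bases. Thra had a log2 fold change of 0.29 (adjusted p = 0.590), and with the strand setting of the counting not given, reads of the overlap cannot be assigned.

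Bhlhe40 encodes DEC1, an E-box repressor that hypoxia is also known to induce. It lies on chromosome 6 (identifier 20893, 108637590 to 108643886, plus strand). Controls 1 to 5 had 245, 348, 487, 206 and 341 CPM, and the NAP libraries had 386 to 952 CPM with a median of 594. NAP 1 and 3, at 386 and 469 CPM, were below control 3, and the other 4 lay above all controls. Ciart, also called CHRONO, encodes a repressor that binds BMAL1. It lies on chromosome 3 (identifier 229599, 95785812 to 95789775, minus strand). Controls had 9.64, 9.43, 6.10, 7.33 and 8.38 CPM, and NAP libraries had 7.92 to 21.1 CPM with a median of 16.0. NAP 6 lay within the controls and the other 5 above them. Log2 fold changes were 0.91 for Bhlhe40 (SE 0.28, adjusted p = 0.0815) and 0.85 for Ciart (SE 0.26, adjusted p = 0.0790). With DESeq2, which called 1609 of the 14631 genes it gave an adjusted p and 5.61% of them higher, Bhlhe40, Ciart and Nr1d2 were called beside Per2 (adjusted p = 0.0170, 0.0201, 0.0311 and 1.15e-04).

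Dbp encodes a PAR bZIP activator and is the clearest E-box output of the loop. It lies on chromosome 7 (identifier 13170, 45354518 to 45359627, plus strand). Controls 1 to 5 had 7.47, 65.0, 25.0, 7.05 and 64.8 CPM, a span of 9.22-fold and the widest of the 10 genes. NAP libraries had 14.7 (NAP 6) to 42.6 CPM (NAP 5) with a median of 34.1, and all 6 lay between the extremes of the controls. The log2 fold change was −0.06 with an SE of 0.55 (adjusted p = 0.962), so with this spread neither a moderate rise nor a moderate fall can be excluded. Its sign turned in the voom, FPKM, blocked and several other alternatives. Dbp overlaps Sphk2 on the other strand by 741 bases (log2 fold change of Sphk2 −0.33, adjusted p = 0.39). The intervals of Per2, Per3, Cry2, Ciart and Bhlhe40 also overlap other genes, all with group means at or below 3.88 CPM.

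**Figure D3:**
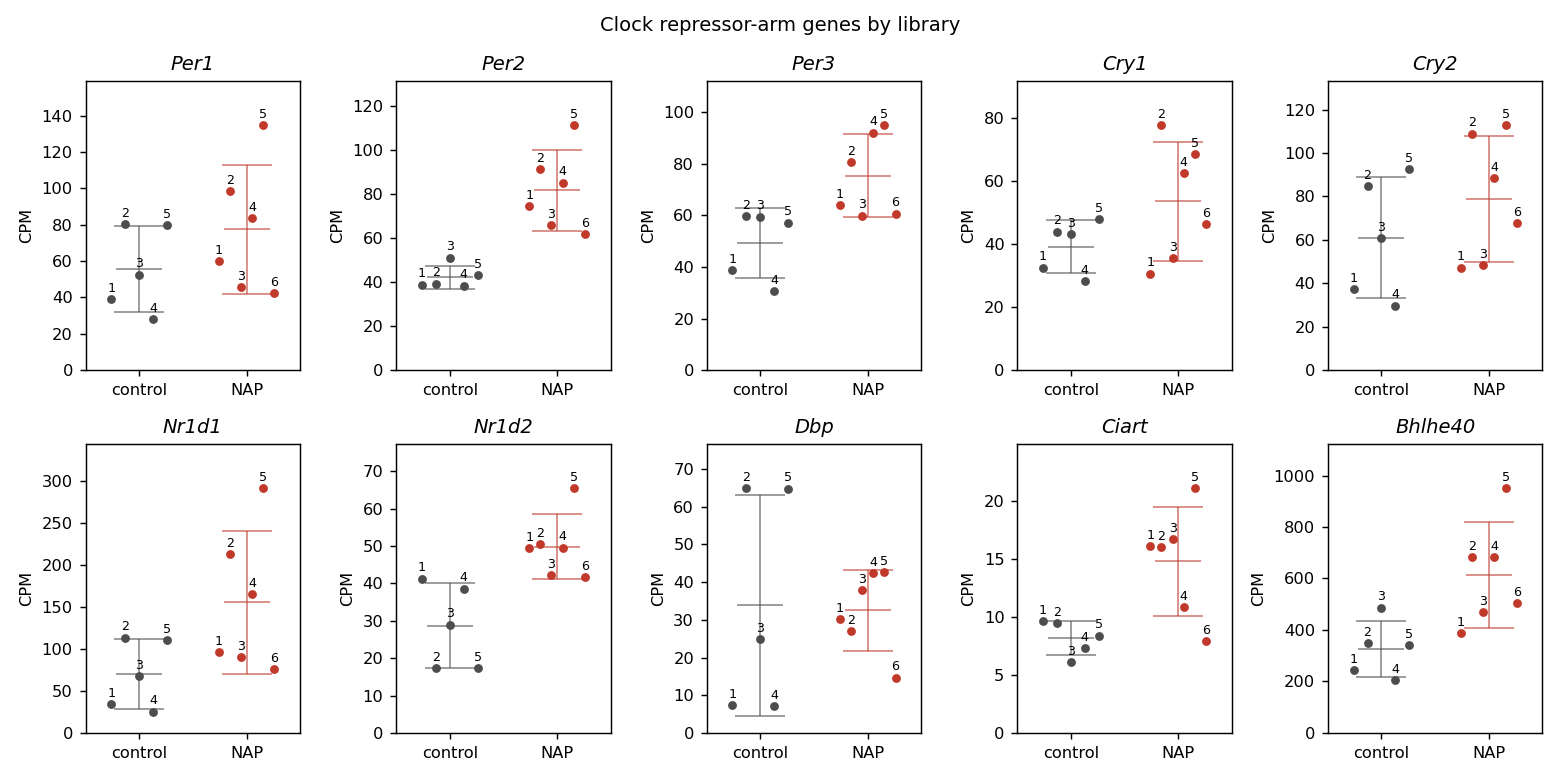
CPM of each repressor-arm gene in every library, labelled by replicate number, with the mean and SD of 5 controls (grey) and 6 NAP libraries (red). The groups do not overlap in Per2, Per3 and Nr1d2. Controls 2 and 5 lie apart from controls 1 and 4 in Dbp, Nr1d1, Nr1d2, Per1 and Cry2, and also in Per3, Cry1 and Bhlhe40.

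The positive arm served as the reference. Clock, which encodes a histone acetyltransferase and DNA-binding partner of BMAL1, had 78.5, 38.4, 54.5, 87.1 and 42.8 CPM in controls 1 to 5, against 59.5 to 73.1 CPM in NAP libraries with a median of 62.7. Npas2 had 48.6, 29.8, 59.3, 29.9 and 29.9 CPM in controls, against 30.5 to 55.3 CPM in NAP libraries with a median of 47.8. All NAP libraries of both genes lay within the control range, with log2 fold changes of 0.09 (SE 0.21, adjusted p = 0.815) and 0.23 (SE 0.23, adjusted p = 0.555). Arntl, the BMAL1 gene, spanned 17.6 to 25.1 CPM among controls, the narrowest range of the 4 there at 1.43-fold, and 16.7 to 25.4 CPM among NAP libraries. The difference of NAP from control was −0.06 on the log2 scale (SE 0.17, adjusted p = 0.848). Its paralog Arntl2 had 2.03 to 8.67 and 2.61 to 6.50 CPM (log2 fold change −0.39, SE 0.41, adjusted p = 0.599). In all, 0 of 4 were called by edgeR and 0 had an unadjusted p below 0.05, and DESeq2 called 0 as well. The reference moved in other fits: Npas2 was at 0.60 with the GC trend removed (unadjusted p = 0.0373, adjusted p = 0.228 in edgeR), where Clock was at −0.16. Clock was at 0.53 without controls 1 and 4 (unadjusted p = 0.00502, adjusted p = 0.0541) and at 0.29 with the marker score as a covariate (0.0419 and 0.119). Arntl2 was at −0.81 without controls 2 and 5 (0.0425 and 0.147). The FPKM ratio of Dbp to Clock, an output against an activator, was 0.382 and 0.325 in controls 1 and 4, 1.84 in control 3, 6.79 and 6.09 in controls 2 and 5, and 0.805 to 2.67 after NAP.

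Set against the mean log2 CPM of Clock and Npas2 in the same library, the groups overlapped in all 10 repressor-arm genes. Only 0.553% of all genes lay wholly higher after NAP on this measure, so an overlap is the usual outcome. Per2 minus the reference was −0.67, 0.22, −0.15, −0.41 and 0.27 in controls 1 to 5 and 0.13 (NAP 6) to 0.86 (NAP 5) after NAP, a mean of −0.15 ± 0.40 against 0.56 ± 0.31. Controls 2 and 5, where Clock and Npas2 were low, reached into the NAP range. Nr1d2 minus the reference was −1.05 to −0.40 in controls and −0.43 to 0.21 after NAP, an overlap of control 4 with NAP 6 alone. Set against Clock alone, Nr1d2 did not overlap, while against Npas2 alone all 10 genes overlapped. The share of all genes without overlap was not computed for these single references. For Bhlhe40 the means were 2.74 ± 0.68 and 3.44 ± 0.36, and for Nr1d1 0.35 ± 1.31 and 1.34 ± 0.71.

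The estimates depended on which controls entered. Without controls 2 and 5 all 10 repressor-arm genes had a positive log2 fold change (49.8% of all genes) and an unadjusted p below 0.05. In that fit 16.0% of all genes were higher at that level, and 4837 of 15501 were past it in either direction. Per2 and Nr1d1 were called (0.95 and 1.89, adjusted p = 0.0386 and 0.0493 in edgeR), among 824 genes in all and 2.71% called higher. Dbp was then at 1.32 (adjusted p = 0.0820), Per1 at 0.98 and Cry2 at 0.91. Without controls 1 and 4 9 of the 10 were positive (51.5% of all genes) and 4 were higher at an unadjusted p below 0.05, where 14.3% of all genes were higher and 4634 of 15873 were past that level in either direction. Per2 and Nr1d2 were called (0.90 and 1.26, adjusted p = 0.0293 and 0.0210 in edgeR), among 1315 genes in all and 2.82% called higher. Dbp was then at −0.63, Nr1d1 at 0.71, Per1 at 0.16 and Cry2 at 0.02. Among the 10, Per2, Ciart and Bhlhe40 moved least between these fits, at 0.90 to 0.95, 0.92 to 0.97 and 0.67 to 1.00 in that order. Nr1d2, Clock and Arntl2 moved the other way, from 0.48, −0.17 and −0.81 without controls 2 and 5 to 1.26, 0.53 and 0.30 without controls 1 and 4. With controls 1 and 4, controls 2 and 5, and NAP 2, 4 and 5 each summed to 1 sample, leaving 3 against 4, edgeR called 0 genes (1017 at an unadjusted p below 0.05) and Per2 was at 0.79 (SE 0.23, adjusted p = 0.742). The colonocyte minus stem cell score given above separates the same control libraries, and its part in these values was not tested beyond a fit with the score as a covariate. In that fit, 3169 genes were called, 11.1% of all genes were higher and 6 of the 10 were higher, namely Per2, Per3, Nr1d1, Nr1d2, Ciart and Bhlhe40.

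**Figure D4:**
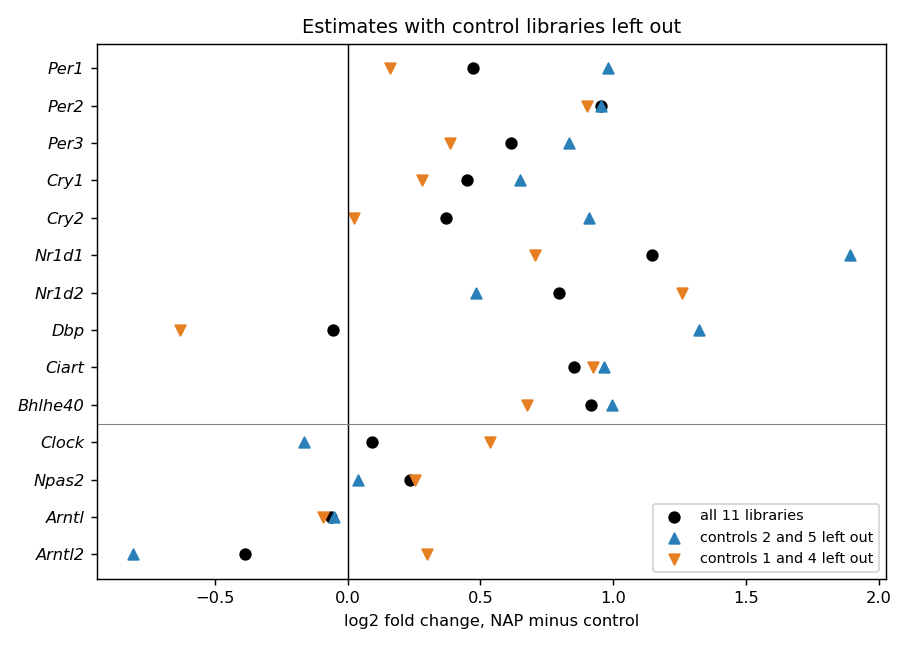
Log2 fold change, NAP minus control, of the repressor-arm (upper 10) and positive-arm (lower 4) genes from edgeR with all libraries (circles), without controls 2 and 5 (upward triangles) and without controls 1 and 4 (downward triangles). Per2 stays at 0.90 to 0.95, whereas Dbp moves from 1.32 to −0.63 and Clock from −0.17 to 0.53.

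Library by library, the repressor-arm genes did not share a single pattern. In NAP 2 and 5 all 10 stood above their own mean over the 11 libraries, and in NAP 4 all but Ciart did. NAP 1, 3 and 6 had 6, 5 and 6 genes above their mean. Controls 1, 3 and 4 each had 1 gene above it, Nr1d2 in controls 1 and 4 and Bhlhe40 in control 3. Controls 2 and 5 had 4 and 5, namely Per1, Cry2, Nr1d1 and Dbp in both and Cry1 in control 5. The median deviation of the 10 genes was −1.04 to 0.01 in controls and 0.03 to 0.85 after NAP. Mitochondrial share was highest in NAP 5 and NAP 2 (8.08% and 8.03%), the libraries with the highest median deviations. Its part in the result was not tested beyond an edgeR fit with the mitochondrial chromosome left out. That fit removes only the counts of those genes, and Per2 was at 0.95 and still called.

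**Figure D5:**
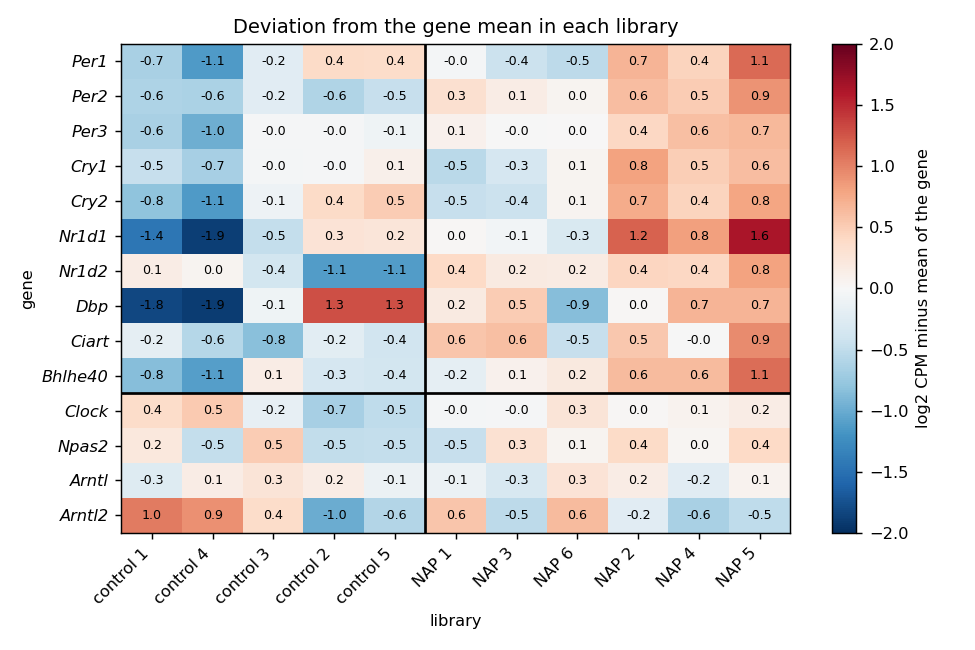
Log2 CPM minus the gene's mean over 11 libraries for 10 repressor-arm genes (upper block) and 4 positive-arm genes (lower block), with close libraries placed side by side. NAP 2, 4 and 5 are high in nearly every repressor-arm gene, controls 1 and 4 are low except in Nr1d2, and controls 2 and 5 combine high Dbp with low Nr1d2, Clock and Arntl2.

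Other genes of the loop were read from lists. Among clock outputs and further E-box or D-box factors, 5 of 6 were tested, all 5 had a positive log2 fold change (median 0.21) and 0 were called. Wee1, a cell cycle kinase gene under E-box control, had 19.2 ± 6.80 CPM in controls against 29.5 ± 8.49 CPM in NAP libraries (log2 fold change 0.62, adjusted p = 0.181), and Tef, the PAR bZIP relative of Dbp, was at 0.39 (adjusted p = 0.237). Among 26 kinases, ubiquitin ligases and cofactors that act on clock proteins, 14 were positive, the median was 0.02 and 0 were called. Kdm5a, a histone demethylase gene that aids CLOCK and BMAL1, was at 0.62 (adjusted p = 0.0905).

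Intestinal genes with described clock control were positive in 4 of 6 tested (median 0.53), and 1 was called higher. That was Slc15a1, the peptide transporter for which DBP control has been described (log2 fold change 1.82, adjusted p = 0.0420), while Abcb1a, a drug efflux pump, was at 0.66 (adjusted p = 0.0755). Inputs to the clock were read in the same way. Of 9 tested CREB and immediate early genes 4 were positive (median −0.07) and 0 called, with Dusp1 at 0.39 (adjusted p = 0.276) and Nr4a1 at −0.58 (adjusted p = 0.372). Of 8 glucocorticoid-related genes 7 were positive (median 0.59) and 1 was called: Errfi1, a feedback inhibitor of the EGF receptor, rose from 81.4 ± 20.9 to 223 ± 90.8 CPM (log2 fold change 1.45, adjusted p = 0.0386). Nr3c1, the glucocorticoid receptor gene, was at 0.72 (adjusted p = 0.0611). Of 16 hypoxia genes 15 were positive (median 0.62) and 0 were called. Kdm3a and Ndrg1 were at 0.89 and 1.40 (adjusted p = 0.0741 and 0.0789). Over all tested genes 44.7% were positive, 1.05% were called higher and the median was −0.07. None of the lists was tested as a set.

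The genes whose log2 CPM ran most like that of Per2 over the 11 libraries, among 9170 genes averaging at least 3 log2 CPM, were Ncoa4-ps, Prkab2, Mpzl3, Rnf19a and Stk24, with Pearson coefficients of 0.988 to 0.966. Prkab2, a regulatory subunit of AMP-activated protein kinase, had 10.8 ± 2.48 CPM in controls against 26.7 ± 7.12 CPM in NAP libraries. Trap1, Thap11, Sac3d1, Zpr1 and Eif2b4 ran most nearly opposite, at −0.984 to −0.958. Trap1, a mitochondrial chaperone of the HSP90 family, had 89.4 ± 5.00 and 63.4 ± 8.61 CPM. Among the other repressor-arm genes Bhlhe40 was closest to Per2 (0.902, ranking 145 from the top), then Per3 (0.847), Nr1d1 (0.794), Ciart (0.757) and Nr1d2 (0.742), and Dbp was farthest (0.338). Clock, Npas2, Arntl and Arntl2 had coefficients of 0.158, 0.499, −0.049 and −0.313. The points share the group difference and the library composition, so these coefficients are descriptions of 11 libraries.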

How the data were processed

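RNA of 11 libraries of mouse colorectal organoids (5 control, 6 NAP), grouped and numbered by their titles, was read from a deposited table of whole-number gene counts. Tools and build per the submitters' processing notes were Trimmomatic 0.39, HISAT2 2.2.1, featureCounts, Subread 2.0.8 and GRCm39. No source used here gives the strand setting, annotation release or handling of multiply mapped reads. FPKM values deposited by the authors were used to compare levels between genes.

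Genes passing edgeR's filterByExpr (14840) were scaled with TMM and tested in edgeR 4.0.16 under R 4.3.3 (NAP against control, robust quasi-likelihood test, threshold 0.05). P-values were adjusted over all tested genes by the Benjamini-Hochberg method. Dividing the log2 fold change by the root of F gave its SE. CPM values of tested genes are TMM-scaled, those of marker sums are not, and logs use a prior count of 2. A count of 0 allows up to 0.137 to 0.181 CPM (3 counts, counting error only). GC content came from GENCODE M21 transcripts for 84.0% of tested genes and for all 10 members.

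The members and lists were chosen with earlier results of these data known. Named genes were the members, the positive arm, called genes and up to 2 genes of smallest p per list, and the 5 genes most like and most unlike Per2. Some genes under this rule are not reported here. Alternatives were other scalings, filters, thresholds and libraries, DESeq2 1.42.0, and limma 3.58.1 on voom or log2(FPKM + 1 or + 0.1). The search for CACGTT, the summed libraries and the block with GC removed were added after seeing the data.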

Additional observations from a re-analysis of the deposited data

Results flagged for a closer look

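Of 28 sets of CPM values (10 repressor-arm and 4 positive-arm genes in each group), 1 held a library far from the others. Nr1d2 had 65.6 CPM in NAP 5, where the next highest NAP library had 50.5 CPM, a gap of 0.632 of the group's range just past the critical value for 6 samples. Chance flags about 1 in 20 such sets. Without NAP 5 the log2 fold change of Nr1d2 was 0.70 (adjusted p = 0.193).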

How the results depend on the processing

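The median log2 fold change of the 10 repressor-arm genes stayed positive in all 29 alternatives, at 0.53 to 0.96. Per2 was positive in all 29 and lost its call in 10, which beside those named in the report were library size scaling (adjusted p = 0.0513) and both fits with the replicate block. Over all 29 its adjusted p ran from 1.15e-04 to 0.742. Instead of 315 genes, edgeR called 41 with library size only, including 0 of the 10. It called 89 without a filter, and 34 with the GC trend removed, the latter among genes with GC values only. At an adjusted p of 0.1 it called 1480 of 14840 genes (679 higher, 801 lower) and 4 of the 10, all higher. DESeq2 called 1609 (5.61% of genes higher) and 4 of the 10, all higher. Limma on log2(FPKM + 1) called 549 and on log2(FPKM + 0.1) called 132. Without controls 2 and 5 there were 824 (2.71% of genes higher) and 2 of the 10. Without controls 1 and 4 there were 1315 (2.82% higher) and 2, and with the colonocyte score 3169 (11.1% higher) and 6. With close libraries summed 0 genes were called, including 0 of the 10. With each library left out in turn edgeR called 0 to 814 genes and 0 to 1 of the 10. Against Clock alone, 1 of the 10 (Nr1d2) did not overlap, and against Npas2 alone all 10 overlapped. No share over all genes was computed for either.

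The sign turned for Dbp, Clock and Arntl2, none of them called, and the cause was not tested. Dbp was at 0.041 with library size only, 0.024 without a filter, 0.56 with voom, 0.36 and 0.45 on log2(FPKM + 1) and log2(FPKM + 0.1), 0.65 with the replicate block, 1.32 without controls 2 and 5, 0.18 with the colonocyte score, 0.27 with the GC trend removed, 0.90 with GC removed and the replicate block, and −0.31 to 0.33 with each library left out. Clock was at −0.049 with library size only, −0.17 without controls 2 and 5, −0.16 with the GC trend removed, −0.12 with GC removed and the replicate block, and −0.0100 to 0.26 with each library left out. Arntl2 was at 0.30 without controls 1 and 4 and 0.037 with the colonocyte score.

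Same-numbered control and NAP libraries did not deviate together throughout (correlations across genes of 0.424, 0.341, −0.074, −0.300 and 0.300 for numbers 1 to 5). By this correlation 2 of the 5 controls, 1 and 2, were most like the NAP library of their own number. Chi-square per gene gave another answer. By it controls 1 and 2 were closer to NAP 3 (133.3 and 162.3) than to their own number (154.1 and 202.1). Control 3 was closest to NAP 3 (51.8) among the NAP libraries. The wide differences among controls enter these correlations, so they neither show nor exclude a pairing by number. With the replicate block, to which NAP 6 adds nothing, edgeR called 0 genes (2903 at an unadjusted p below 0.05), 0 of the 10, and the same with the GC trend also removed. With the block alone all 10 were positive, with a median of 0.81 against −0.02 over all tested genes. In that fit 7 of the 10 had an unadjusted p below 0.05, beside the 2903 of 14840 genes in either direction. Per2 was then at 1.01 (adjusted p = 0.135), and 1.24 (adjusted p = 0.152) with GC removed.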
